A study of Arabidopsis thaliana with 18 samples.

Results

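The binding sites of SVP:GFP in *flc-3* seedlings were taken from one deposited peak list, in which SVP:GFP samples were set against 35S::GFP samples. All peaks of that list were used, which gave 246 of the 1503 peaks in the 4 lists of the series. The list came from *A. thaliana* seedlings of 2 weeks, of which the parts above ground were harvested. The plants with SVP:GFP carried *pSVP:SVP:GFP*, a fusion of SVP with green fluorescent protein under the *SVP* promoter, in the *svp-41 flc-3 FRI* background, and 3 samples were labelled. The control plants expressed *35S::GFP*, that is GFP alone from a viral promoter that is active in most tissues, and 3 samples were labelled. The labels give Columbia-0 with *FRI* as the ecotype of both groups, and no *svp-41* or *flc-3* allele for the control plants. Both groups were immunoprecipitated with an antibody against GFP. The fusion thus stood in for the SVP that *svp-41* plants lack, *flc-3* plants lack FLC function, and the *FRI* allele was active. The labels give long days for the plants and the methods of the study give short days. The authors kept peaks that recurred across the replicates and merged these, so each peak has a single fold-enrichment and a single −log10 p-value of their calling against the control. No SD or value of a single replicate could be given, no further test was made, and the depth of the samples is unknown.

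SVP is a MADS-box transcription factor that delays flowering. It acts with FLC, another MADS-box protein, whose level is kept high by *FRI* until a long winter cold. MADS-box proteins bind as dimers to the CArG-box, a short palindromic site made of CC, a run of 6 A or T, and GG. In a plant with SVP but no FLC, the sites of SVP are read without FLC. The study names other MADS-box proteins with which SVP interacts, such as FLM and SEP3. The G-box, CACGTG, is another palindrome, which basic leucine zipper (bZIP) and basic helix-loop-helix proteins bind.

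The sequences below show what lay under the summits of the peaks on which the results turn. They are forward-strand sequence of TAIR10.1, whose nuclear chromosomes have the lengths of TAIR10, the build of the list. The sites of 30 bases are those in which a CArG-box, in capitals, was closest to the summit. They cover the 7 of the 50 highest peaks that held one and, from lower ranks, peaks at regulators of flowering.

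*SPA2*, chr4:6771967-6771996: ctcttgtttgCCAAATTTGGgatatttctg
*DRB5* and *GDPD2*, chr5:16440835-16440864: tacttgatttCCAAAAATGGgttttttcaa
*AT3G15460* and *AT3G15470*, chr3:5216399-5216428: aaagaattttCCTTTTTTGGtttctctctt
*bZIP44*, chr1:28293013-28293042: ttttctgtttCCTTATTTGGgagttattgt
*AT1G58340* (*ZF14*), chr1:21655801-21655830: atattcgtagCCAAAAATGGaaaacaattt
*AT5G58900*, chr5:23785275-23785304: gcaaatgaacCCATAAATGGaaagaaaact
*AT1G44010*, chr1:16713655-16713684: taaagacaaaCCAAAAATGGaaagaaacaa
*ATC*, chr2:11771695-11771724: attaacatttCCAAAAATGGtaagtccaag
*MIR156E*, chr5:3865686-3865715: gtgtgttttgCCTAAAAAGGaaagttgtca
*SMZ*, chr3:20379158-20379187: atcggcctttCCTTATTTGGtaagactaaa
*SHP2* and *HVA22F*, chr2:17819837-17819866: aaagggattaCCAAAAAAGGaaagtttcca

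The G-box sites of 7 peaks at genes named in the results are given in the same way, with the G-box in capitals.

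*FBW2*, chr4:5757933-5757962: ctttttcaccgaCACGTGtcggttctttca
*AGL14*, chr4:7142482-7142511: cggtaataatggCACGTGtcatgatctcaa
*GT18*, chr5:24990639-24990668: gaaagaaacggaCACGTGcctgtggcattg
*SLK2*, chr5:24939303-24939332: agtcaatactgaCACGTGtcttgtttatcg
*JAZ3*, chr3:6119613-6119642: tgcacgacgatgCACGTGcctttttaaccg
*AGL19*, chr4:12028453-12028482: gggagatcttggCACGTGtccatattaacc
*SLK1* and *FWA*, chr4:13036620-13036649: aaacgacaccgaCACGTGctgatgtcttag

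Windows of 201 bases, 100 on each side of the summit, show a peak with 2 CArG-boxes, a peak near a floral gene with no exact CArG-box, and the highest peak with no assigned gene. Capitals mark CArG-boxes in the first, and in the second a sequence with 1 letter of the CC or GG changed. The third holds neither motif and has no capitals.

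*DRB5* and *GDPD2*, chr5:16440751-16440951: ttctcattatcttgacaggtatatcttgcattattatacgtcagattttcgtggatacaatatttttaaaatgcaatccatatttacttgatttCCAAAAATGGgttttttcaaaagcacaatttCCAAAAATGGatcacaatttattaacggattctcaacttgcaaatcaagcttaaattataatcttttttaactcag
*SEP3*, chr1:8598776-8598976: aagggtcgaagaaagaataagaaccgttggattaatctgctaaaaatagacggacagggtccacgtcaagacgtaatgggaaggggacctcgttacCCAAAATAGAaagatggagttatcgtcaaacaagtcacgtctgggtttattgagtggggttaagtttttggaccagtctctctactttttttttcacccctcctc
Peak at the pseudogene *AT2G01029*, chr2:31601-31801: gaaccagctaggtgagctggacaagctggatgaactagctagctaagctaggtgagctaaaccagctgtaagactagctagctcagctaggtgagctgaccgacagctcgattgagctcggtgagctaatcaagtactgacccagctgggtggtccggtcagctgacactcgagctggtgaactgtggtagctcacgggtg

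In the *SPA2* peak the centre of the CArG-box lay 2.5 bases from the summit, and in the peak between *DRB5* and *GDPD2* the closer of the 2 boxes lay 1.5 bases from it. The letters CCAAAAATGG were found in 5 of the 18 CArG-boxes nearest to a summit, among them those of *DRB5* and *GDPD2*, *AT1G58340*, *AT1G44010* and *ATC*.

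An exact CArG-box lay within 100 bases of the summit in 18 of the 246 peaks, or 7.32%, and in 1.24% of the 591719 non-overlapping windows of that length in the nuclear genome. A G-box lay there in 37 peaks, or 15%, and in 2.21% of the genome windows. Both motifs were searched on both strands, and no overlap between them is possible. No peak window held both. With 1 letter of the CC or GG free, 72 peaks (29.3%) and 18.7% of the genome windows held a CArG-box. The centres of the nearest exact boxes lay at a median of 14.5 bases from the summit, from 1.5 to 89.5, and 14 of 18 lay within 50 bases. These shares are descriptions of 1 list and were not tested.

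The shares of the 2 motifs ran differently down the list, which was ranked by −log10 p-value. A CArG-box was found in 7 of the 50 highest peaks (14.0%) and in 11 of the peaks ranked lower (5.61%). A G-box was found in 7 of the 50 highest (14.0%) and in 30 of the lower ones (15.3%). The list was also divided by rank into 4 groups of equal size. Among the 186 peaks whose summit sequence occurs at a single place in the genome, the CArG-box was present in 8 of 44 peaks of the first group, 5 of 52 of the second, 3 of 47 of the third and 0 of 43 of the last, which allows a share of up to 8.20% by the 95% Wilson interval. The G-box shares of the same groups were 22.7%, 21.2%, 17.0% and 18.6%. The CArG-box shares were thus lower in each later group, and the G-box shares stayed within a narrow range.

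**Figure D1:**
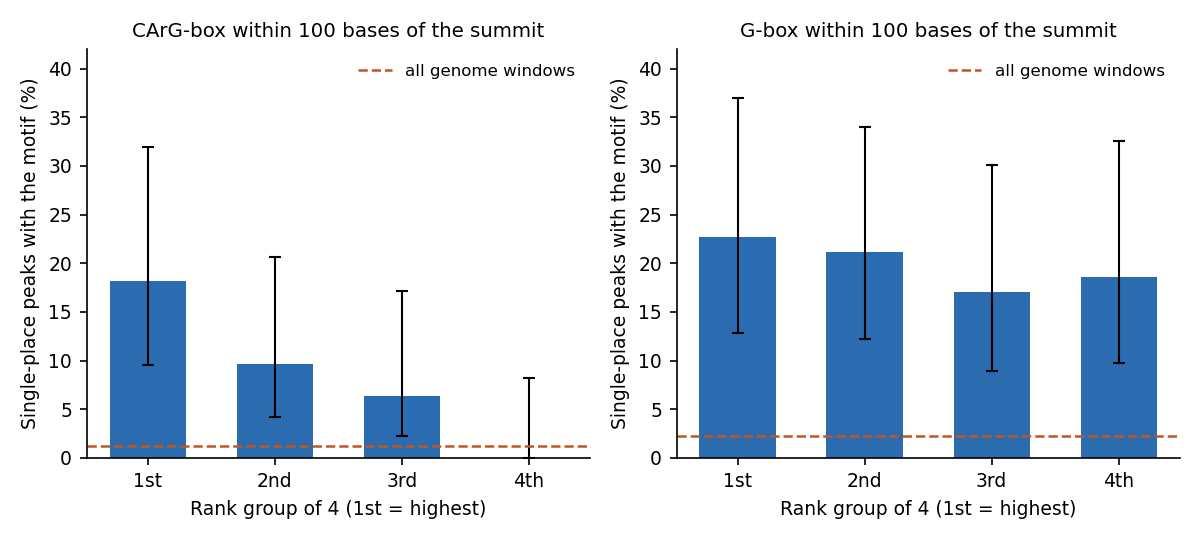
Share of peak windows (201 bases around the summit, in percent) with an exact CArG-box and with a G-box, in the 4 groups by rank for single-place peaks, with 95% Wilson intervals that cover counting error only and the share of all genome windows as dashed lines. The CArG-box share is 18.2% in the first group and 0% in the last, and the G-box share lies between 17.0% and 22.7% throughout.

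The motifs were also counted by the position of the summit. Of the 79 single-place peaks with a summit up to 3 kb upstream of a protein-coding gene, 26.6% held a G-box and 10.1% a CArG-box, where the upstream windows of the genome held them in 3.09% and 1.46%. Of the 32 with a summit in a 5′ untranslated region, 25% held a G-box and 6.25% a CArG-box, against 3.72% and 1.63% of such windows. Of the 21 with a summit in a 3′ untranslated region, 0 held a G-box and 2 a CArG-box, against 1.73% and 1.32% of such windows.

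The 246 peaks had a median width of 430 bases, from 82 to 4827. Their fold-enrichment, the ratio of SVP:GFP to 35S::GFP in the authors' peak calling, had a median of 3.50 and ranged between 1.65 and 9.47. Their −log10 p-value had a median of 19.1, from 11.4 to 97.2. Of the peaks, 35.8% had their summit up to 3 kb upstream of a protein-coding gene, 13.0% in a 5′ untranslated region, 9.76% in a coding exon, 9.76% in a 3′ untranslated region, 7.32% up to 1 kb downstream and 2.44% in an intron. The same classes make up 24.9%, 4.91%, 28.3%, 5.74%, 3.49% and 15.2% of the bases of the nuclear genome. Upstream sequence and the untranslated regions thus held a larger share of summits than of bases, and coding exons and introns a smaller one. Of the 173 single-place peaks with a gene, 81 (46.8%) had the summit within 500 bases of the nearest start of a coding gene, and 109 (63.0%) within 1 kb. The share of the genome that lies as close to a start was not computed. The rule by which genes were assigned also keeps these summits in or near a gene, so the 2 shares show no preference for starts.

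The authors assigned a summit to each gene for which it lay between 3 kb upstream of the gene's start and 1 kb downstream of its end. This gave 303 genes, of which 281 are protein-coding, 9 encode tRNAs and 2 encode miRNAs in the reference annotation. A peak had 1 gene in 81 cases, 2 in 85, 3 in 25 and 4 in 2, and 53 peaks had none. Where a peak has several genes, the list does not say which of them is the target.

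Part of the list lay at sequence that occurs more than once in the genome. Bowtie2 gives a read that matches several places to a best one, and its part in these peaks was not tested. The sequence around the summit of 60 peaks (24.4%) matched another place at 95% identity or more over at least 150 bases. Of these, 38 had copies in the nucleus only, 11 had a copy in the mitochondrial genome and 11 in the chloroplast genome. These 60 copied peaks had a median width of 162 bases and a median fold of 2.41, where the 186 single-place peaks had 472 bases and 3.62. Their median −log10 p-values were close, at 17.5 and 19.4. No copied peak had a G-box and 2 had a CArG-box.

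The 50 highest peaks had −log10 p-values of 33.0 or more. Of these peaks, 38 had a gene, 12 had none and 14 were copied. They name 55 genes, and the roles of 30 of them are given here as background. Among these were 9 transcription factors, 3 regulators that lack a DNA-binding domain of their own, 2 genes of protein degradation, 3 enzymes of the cell wall or of glycosylation, 1 of hormone conjugation, 3 genes of RNA or ribosomes, 5 of lipids, membranes or transport and 4 other enzymes.

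The highest peak was in the first part of *SPA2*, which encodes a partner of the COP1 ubiquitin ligase that acts in light signalling. It lay at chr4:6771742-6772388, with a fold of 9.27, a −log10 p-value of 97.2 and a summit in an intron, 379 bases into the gene. *FBW2*, an F-box gene whose product targets ARGONAUTE1, had its summit 71 bases upstream of its start, with a fold of 5.95 and a −log10 p-value of 62. The second peak of the list, at chr5:16440607-16441332, had the highest fold, 9.47, and the same rounded −log10 p-value, 97.2. It lay between *DRB5*, which encodes a protein that binds double-stranded RNA, and *GDPD2*, which encodes a glycerophosphodiester phosphodiesterase, 804 bases upstream of *GDPD2*. Next among the peaks with a gene was that at *AT3G15460*, for a Brix-domain protein of ribosome assembly, and *AT3G15470* on chromosome 3, with 8.08-fold enrichment and a −log10 p-value of 74.9.

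Several transcription factors of flowering stood among the 50 highest. *SEP3*, a MADS-box gene of flower development, had its summit 2753 bases upstream, with a fold of 6.85 and a −log10 p-value of 56.9. *SOC1* (*AGL20*), a MADS-box gene that promotes flowering, had its summit 28 bases upstream, at chr2:18810952-18811387, with a fold of 5.54 and a −log10 p-value of 38.9. *AGL14*, a MADS-box gene of the same clade, had a peak with a G-box 473 bases upstream, with 5.15 and 38.0. None of these 3 MADS-box genes had an exact CArG-box in its window, and those of *SEP3* and *SOC1* held one with 1 letter changed.

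Genes for other classes of transcription factor were *bZIP44* (6.03-fold, −log10 p-value 45.2, with a CArG-box), *BZIP49* (5.34-fold, 38.8), *NAC3* (5.38-fold, 36.6), the homeodomain-like *AT5G58900* (5.54-fold, 38.9) and *NF-YA1* (5.09-fold, 33.5). NF-YA1 is a subunit of the NF-Y complex, which binds CCAAT. Its peak had its summit 2475 bases upstream of *NF-YA1* but in the 5′ untranslated region of *AT5G12850*, so the neighbour is the closer gene. The peaks of *bZIP44* and *NAC3* were downstream of these genes, by 17 and 649 bases.

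The regulators without a DNA-binding domain of their own were *CLF*, the histone methyltransferase of Polycomb repression, *RGL2*, a DELLA repressor of gibberellin responses, and *SLK2*, a co-repressor related to SEUSS. *RGL2* had its summit 1132 bases upstream, with a fold of 5.30 and a −log10 p-value of 35.8. *SLK2* had its summit 101 bases upstream, with 5.04 and 33.2, and a G-box. *CLF* held 4 of the 50 highest peaks. Within the gene, the peaks of *CLF* lay in exons only and held 0% of its intronic bases, and the cause was not tested.

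Genes of metabolism were mixed. *DFL1* (*GH3.6*), which conjugates auxin to amino acids, had a peak 1003 bases upstream with a fold of 5.87 and a −log10 p-value of 42.8. *GT18*, for a galactosyltransferase of the cell-wall polymer xyloglucan, had a peak 343 bases upstream with 4.94 and 35.0. *AT1G22460*, for a protein of the O-fucosyltransferase family, had a peak with 7.12 and 62.1. *G4*, for chlorophyll synthase, shared with *SAC8* a peak of 89 bases with 4.0 and 41.4. The peaks of *SVP*, *GT18* and *AT4G33400* carried identical fold and −log10 p-values, as did those of *SOC1* and *AT5G58900*. Altogether 66 peaks shared both values with at least 1 other peak, so the order among them is arbitrary.

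**Figure D2:**
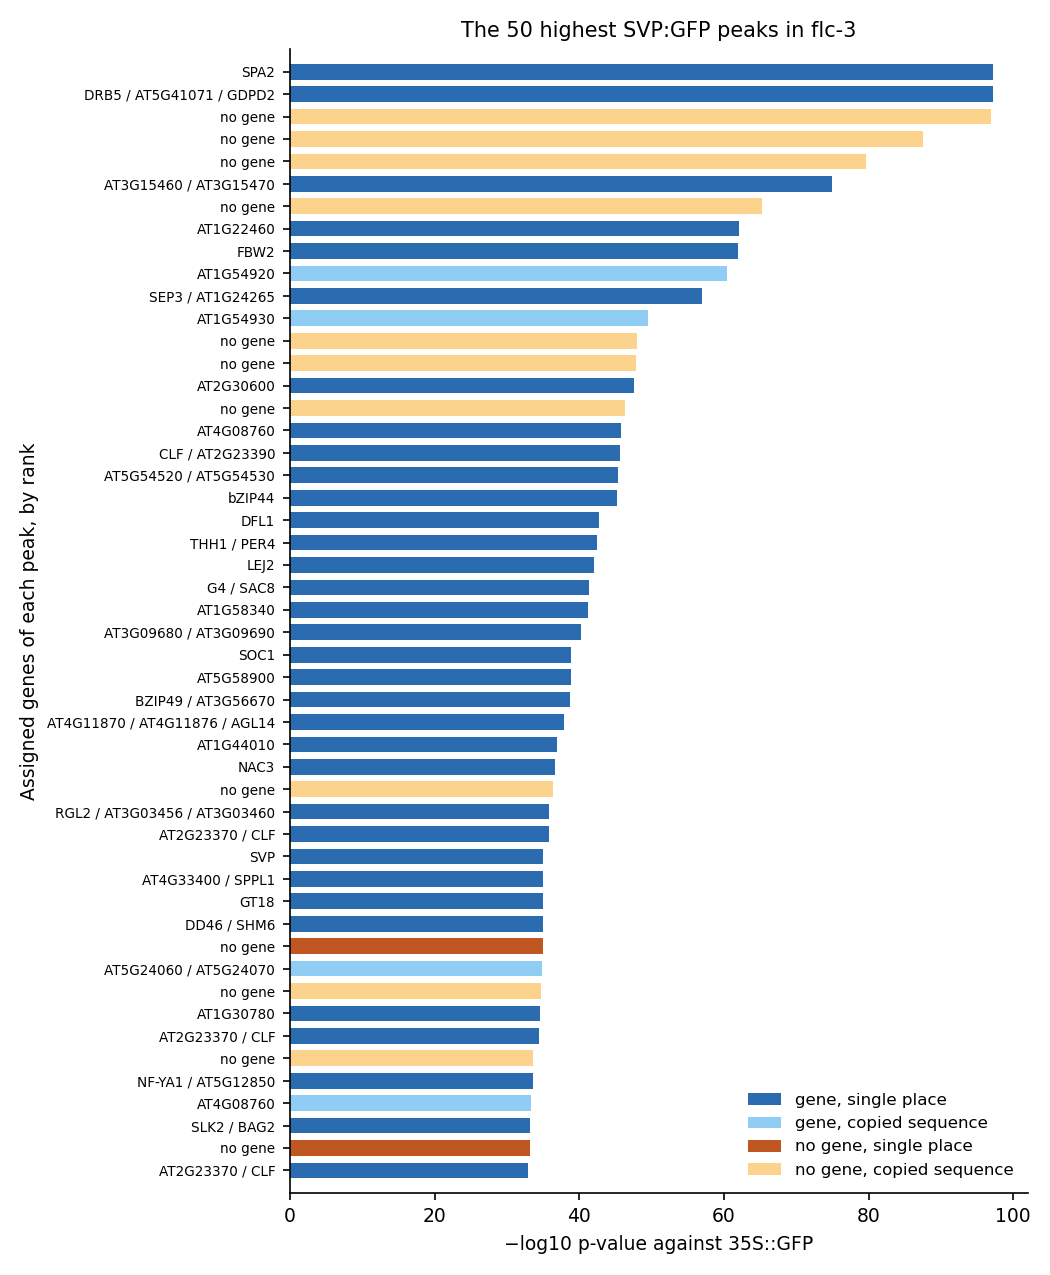
The 50 highest peaks by −log10 p-value, highest at the top, with the −log10 p-value of SVP:GFP against 35S::GFP as the length of each bar and the assigned genes beside it. Colours mark peaks with and without a gene, at copied or at single-place sequence, and 4 of the 12 peaks without a gene are among the 7 longest bars.

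To see which pathways had peaks, 12 lists with 191 genes were read against the assigned genes. Of all 27444 protein-coding genes in the annotation, 281 had a peak, or 1.02%. Of the 191 listed genes 38 had one, or 19.9%. The listed genes include miRNA genes, such as *MIR156E* and *MIR156F*, which the protein-coding background does not count. Some listed genes also share a peak, as *SLK1* and *FWA* do. The lists were chosen with results of these data known, and list shares above the background are therefore not independent evidence. 

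Of the 33 MADS-box genes of flowering, 6 (18.2%) had a peak. In addition to *SEP3*, *SOC1*, *AGL14* and *SVP* itself, these were *AGL19*, a promoter of flowering (3.82-fold, −log10 p-value 18.7, 501 bases upstream, with a G-box), and *SHP2*, a gene of carpel and fruit identity (3.47-fold, 15.5, 290 bases upstream, with a CArG-box). For *SVP*, reads of the *pSVP:SVP:GFP* transgene cannot be told apart from binding at the endogenous gene. Of the 8 genes of the FT/TFL1 family with *FD* and *LFY*, 2 had a peak. *FT*, which encodes the mobile signal of flowering, had a peak 56 bases upstream that was 1080 bases wide, with a fold of 2.12 and a −log10 p-value of 14.4. *ATC*, a relative of *TFL1* that delays flowering, had a higher peak, with 4.98 and 32.4, 1475 bases upstream. A further peak, assigned to *FAS1*, lay 5324 bases upstream of the start of *FT*, beyond the window of assignment. It was 1266 bases wide, with a fold of 2.41 and a −log10 p-value of 16.9. Neither window held an exact CArG-box or a G-box.

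Of the 8 AP2-like and TEM floral repressors, *SMZ* alone had a peak (3.50-fold, −log10 p-value 15.7), 2660 bases upstream and with a CArG-box. Of the 13 genes of the list of miR156, which delays the adult phase, and of its *SPL* targets, *MIR156E* (3.99-fold, 20.6, with a CArG-box) and *MIR156F* (3.42-fold, 14.6, with a G-box) had a peak. No *SPL* gene of the list had one.

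The cold and dehydration list had the largest share, 10 of 19 genes (52.6%). Among its peaks only that assigned to *HVA22F* held an exact CArG-box in its window, and none held a G-box. That peak was also assigned to *SHP2*, with its summit 1279 bases upstream of *HVA22F* and 290 upstream of *SHP2*. The only peak of *ERD10* was also assigned to *COR47*. *CBF1*, which encodes an activator of the cold response, had its summit 600 bases upstream (3.58-fold, −log10 p-value 16.3). *ABF4*, for a bZIP factor of the abscisic acid response, had one 1067 bases upstream (4.40-fold, 25.1). *COR47*, *ERD10* and *ERD14*, all for dehydrins, had peaks of 3.1-, 2.77- and 2.67-fold enrichment. The other members were *ERD15*, *SRC2*, *ERD7*, *HVA22E* and *HVA22F*. Several of these peaks lay at the 3′ ends of genes rather than upstream, with summits 9 bases downstream of *SRC2*, 15 downstream of *ERD7* and 74 downstream of *ERD15*, and within 3′ untranslated regions in *COR47*, *ERD14* and *ERD10*.

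Each hormone list had fewer members with a peak than the cold and dehydration list. The shares were 33.3% of the *GH3* genes, 13.6% of the jasmonate genes and 4.35% of the gibberellin genes. Of 9 *GH3* genes, *DFL1*, *WES1* (4.56-fold, −log10 p-value 27.2, 926 bases upstream) and *GH3.1* (2.28-fold, 26.9, 1856 bases upstream) had a peak. Of 22 jasmonate genes 3 did, namely *JAZ3* (4.73-fold, 28.5, 65 bases upstream), *JAZ9* (3.09-fold, 11.9), both encoding repressors of jasmonate responses, and *AOC4* (3.74-fold, 18.1), encoding an enzyme of jasmonate synthesis. Of 23 gibberellin genes only *RGL2* did. *JAZ3* and *JAZ9* held a G-box.

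Of 24 photoperiod and light genes 2 had a peak, *SPA2* and *NF-YA1*. Of 15 clock genes 3 did, namely *TIC* (3.68-fold, −log10 p-value 24.3), *RVE2* (3.50-fold, 15.7) and *GRP7*. Of 12 Polycomb and chromatin genes, *CLF*, *FAS1* and *FWA* did, and within *CLF* the peaks lay in exons only. *FWA*, a homeobox gene silenced by DNA methylation, shared a peak (3.07-fold, 12.5) with *SLK1*, and its summit lay 85 bases upstream of *SLK1* and 1804 upstream of *FWA*. *SLK1* and *SLK2* were 2 of the 5 SEUSS and LEUNIG co-repressor genes.

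The number of peaks per chromosome was uneven. Chromosome 2 had 82 peaks, which is 33.3% of the list (95% Wilson interval 27.7% to 39.4%), on 16.5% of the genome. The interval covers counting error only and takes the peaks as independent, although some lay in clusters. Chromosome 2 had 4.16 peaks per Mb, chromosome 4 had 2.21, chromosome 3 had 1.71 and chromosomes 1 and 5 had 1.45 each, with 2.06 over the whole genome. Counting only single-place peaks, chromosome 2 had 2.64 per Mb and the others between 1.15 and 1.67. Counting single-place peaks with a gene, it had 2.39 per Mb and the others between 1.04 and 1.56.

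**Figure D3:**
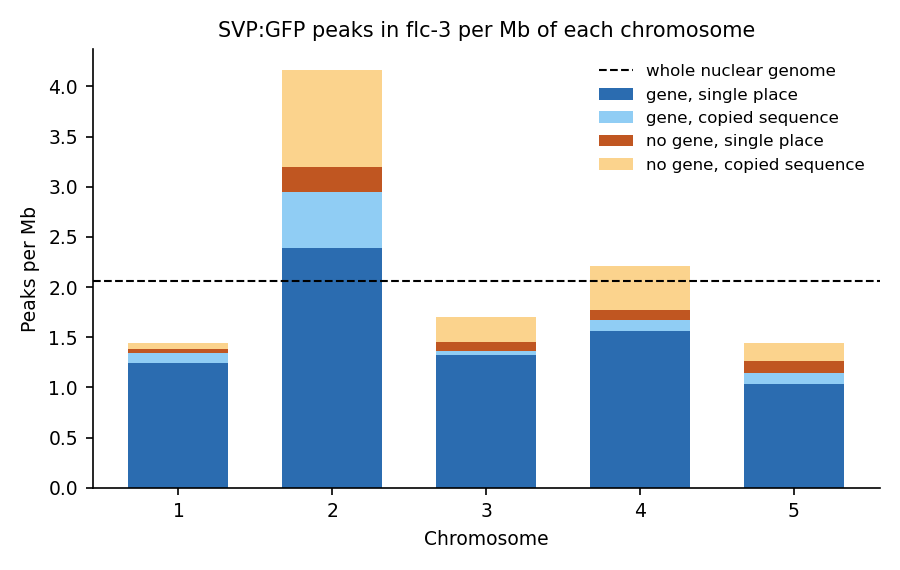
Peaks per Mb of each chromosome of SVP:GFP in *flc-3*, stacked by whether a peak has a gene and whether its sequence is copied, with the value of the whole nuclear genome as a dashed line. The bar of chromosome 2 reaches 4.16 peaks per Mb, of which 2.39 are single-place peaks with a gene.

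A few stretches of chromosome 2 held many of its peaks. The bin of 9 to 10 Mb held 21 peaks, more than any other of the 121 bins of 1 Mb, and 9 of them are *CLF* and 2 *SVP*. The first 100 kb held 12 peaks with −log10 p-values between 12.5 and 96.9. The bin of 3 to 4 Mb held 14, of which 11 had a copy in the mitochondrial genome, with folds between 1.70 and 2.63. Leaving out the first 100 kb, the bin of 3 to 4 Mb and the peaks of *CLF* and *SVP*, 45 peaks of the chromosome remained. In the whole genome 28 bins had no peak, 74 had 1 to 3 and 19 had 4 or more, and outside chromosome 2 no bin held more than 6.

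The width of a peak showed no relation to its rank. Spearman's rho between width and −log10 p-value was −0.01 over 246 peaks, 0.01 over the single-place peaks and −0.08 over the copied ones. The median widths of the 4 groups by rank were 467, 420, 426 and 418.5 bases, and the median folds were 4.98, 3.95, 3.46 and 2.90. With fold-enrichment, width had a rho of 0.32 over all peaks, 0.14 over the single-place peaks and 0.25 over the copied ones. Points of 1 list share libraries and controls, so these are descriptions without a p-value.

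Width instead divided the peaks by kind of sequence. Of the 46 peaks under 200 bases (18.7% of the list), 34 were copied, while 12 were among the 186 single-place peaks (6.45%). In each of the 4 groups by rank the copied peaks had a lower median than the single-place ones, as 168.5 bases against 490 in the first. At the other end, 19 peaks were over 1000 bases. The widest, of 4827 bases at chr1:29804569-29809395, ranked 218 and had no gene, and its summit lay in the pseudogene *AT1G79245*. The next were a peak of 3646 bases at *AT2G07721* with a mitochondrial copy, one of 2788 bases at *PPR336* and *AT1G61890*, and that of 2401 bases in *SVP*, which ranked 36.

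**Figure D4:**
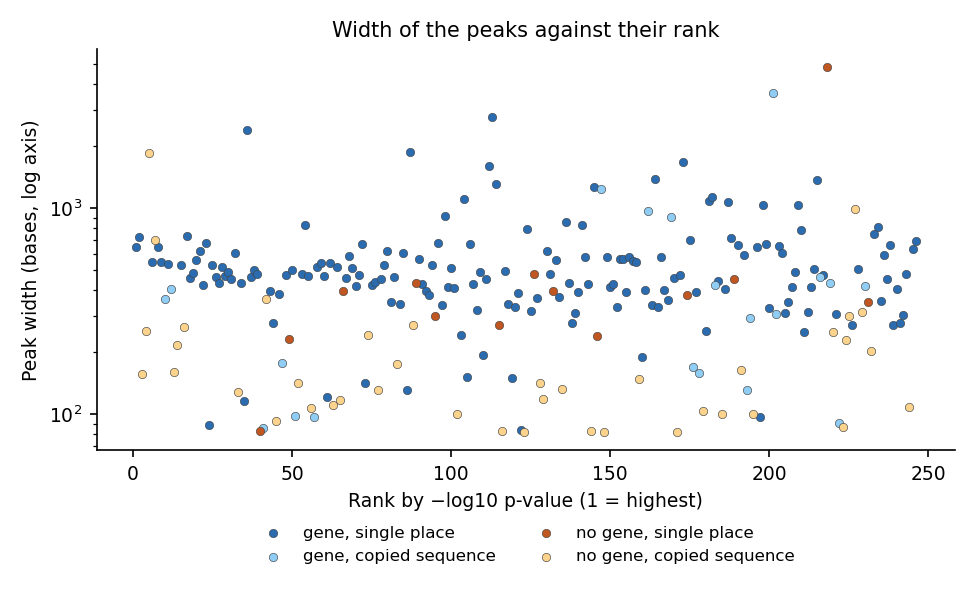
Width of each peak in bases (log axis) against its rank by −log10 p-value, coloured by whether a peak has a gene and whether its sequence is copied. Of the 60 copied peaks 34 lie below 200 bases, but in the last of the 4 groups by rank 7 of 19 do. The single-place peaks lie around their median of 472.

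Of the assigned genes, 21 had more than 1 peak, and these peaks numbered 33. *CLF* had 9 peaks, its neighbour *AT2G23370* was assigned 5 of these and 19 genes had 2. The 19 rest on 13 distinct pairs of peaks, with summits 279 to 3488 bases apart and a median of 1224. Among the 21 genes, 10 were on chromosome 2.

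The 9 peaks of *CLF* ranked between 18 and 197. Their −log10 p-values were 33.0, 34.4, 13.8, 35.8, 27.1, 24.2, 20.4, 19.3 and 45.6 along the gene, their folds ran between 2.55 and 4.95, and their widths ran between 84 and 673 bases. From the first to the last base they spanned 5286 bases, beside a gene length of 5295, and the last peak ran past the annotated end of the gene. Neighbouring summits lay 245 to 886 bases apart. Every base of these peaks within the gene lay in an exon, 71.8% of the exonic bases were in a peak and 0% of the intronic bases were, although exons make up 66.4% of the gene. The summits were single-place sequence. Reads were not used here, so the cause was not tested.

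*SVP* had 2 peaks, with fold-enrichments of 4.94 and 2.57. They covered 68.3% of the gene, and of its intronic bases 72.4% and of its exonic bases 62.7%. The plants carry *pSVP:SVP:GFP* as a transgene, so reads of the transgene and binding at the endogenous gene cannot be told apart.

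Some of the other pairs had a peak at copied sequence. *AT4G08760* had 2 peaks with −log10 p-values of 45.8 and 33.4, of which the lower was copied, and *AT5G24060* and *AT5G24070* shared 2 with 34.8 and 32.8 and chloroplast copies. *AT2G07734* and *AT2G07827*, with 15.6 and 13.6, had mitochondrial copies. The genes of known role with 2 peaks were *COR47* (−log10 p-values 17.2 and 12, summits 3488 bases apart), *RAP2.4* (21.2 and 11.4, 1647 bases), *GRP7* (19.1 and 13.9, 753 bases), *ERF4* (17.9 and 13.3, 279 bases), *MYBR1* (20.6 and 13.2, 1423 bases), *CYCD3;1* (13.7 and 11.9, 1551 bases) and *UBQ11* (13.7 and 11.4, 1092 bases), as well as *EIF2* and *HSPRO2*, which share their pair (18.1 and 14.4). *RAP2.4* and *ERF4* encode AP2/ERF factors of stress and ethylene responses, *MYBR1* a MYB factor of abscisic acid responses, and *CYCD3;1* a cyclin. In *GRP7*, *CYCD3;1* and *UBQ11* the 2 peaks were assigned also to a neighbouring gene. The lower peak of *COR47* was assigned also to *ERD10*. Its summit lay in the 3′ untranslated region of *ERD10*, 1058 bases upstream of *COR47*.

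**Figure D5:**
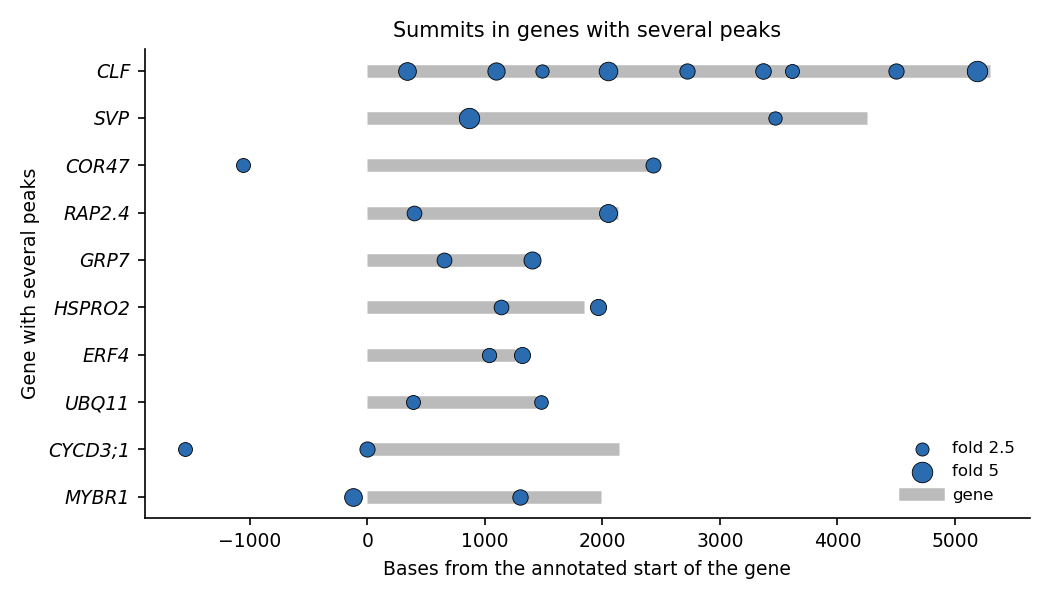
Summits of peaks (circles, with area rising with fold-enrichment) in 10 of the genes with several peaks, by distance in bases from the annotated start of the gene (grey bar). The 9 summits of *CLF* lie between 336 and 5185 bases, along the whole gene, and those of the other genes come in pairs.

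No gene was assigned to 53 peaks (21.5%). Of these, 40 were copied (75.5%), against 20 of the 193 peaks with a gene (10.4%). The copies were nuclear in 31, mitochondrial in 2 and in the chloroplast in 7, and the nuclear ones numbered between 1 and 98 with a median of 19. A pseudogene held the summit in 23 peaks, another noncoding gene in 2 and no annotated gene in 28. They had a median width of 176 bases and a median fold of 2.62. Chromosome 2 held 24 and the 50 highest peaks held 12.

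The highest peaks with no gene mostly belonged to a single family. A family of 18 peaks on 5 chromosomes shared related sequence, with −log10 p-values between 14.7 and 96.9 and folds between 2.21 and 9.22, and 14 of them had no gene. The highest, at chr2:31623-31780, 158 bases wide, had a fold of 9.22 and a −log10 p-value of 96.9 and lay in the pseudogene *AT2G01029*, with 26 other copies of the sequence. Neighbours in the same pseudogene had −log10 p-values of 87.5, 79.6, 65.2 and 47.9. Other members lay at *AT2G01040* on the same chromosome, with 48.0 and 34.8, at *AT5G28110* with 46.4 and at *AT2G21460* with 36.4. Another of the 10 highest without a gene, 83 bases wide on chromosome 4, had 35.0 and no other copy, and lay 379 bases from *AT4G08695*.

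The 13 single-place peaks without a gene included peaks outside the window of a gene. The highest of them with a summit in no annotated gene or pseudogene and more than 3 kb from any, ranked 66, lay 3757 bases from *AT5G25220* with a fold of 4.64 and a −log10 p-value of 27.9. Another lay 3468 bases from *AT4G36740* and held a CArG-box. Over all 53, 9 summits lay more than 3 kb from any gene or pseudogene, the farthest at 26681 bases.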

How the data were processed

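ChIP-seq peaks of SVP:GFP in *flc-3*, with 3 labelled samples, were called by the authors against 3 labelled 35S::GFP samples. Per the labels and the methods, reads were aligned to TAIR10 with Bowtie2 2.0.2 and peaks were called with MACS, selected by reproducibility between replicates (IDR) and by NarrowPeaks, and assigned genes with CSAR. The deposited list gives the fold-enrichment, a ratio of sample to control made by the authors, and a −log10 p-value, also from the calls the authors made. Whether these belong to 1 replicate or to a merged call is not given in the sources used here. Reads and tracks were not used here. The supplementary methods name another number of control samples than the labels. The 178 empty rows were skipped, and 0 columns of single samples were left out.

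The list was analysed with Python 3.11.15, pandas 2.3.3, NumPy 2.4.6 and SciPy 1.17.1. Figures were drawn with matplotlib 3.10.9. Sequence, genes and positions are from RefSeq TAIR10.1. Copies of 201-base windows around the summit were searched with BLAST+ 2.17.0 and needed 95% identity over 150 bases. Widths are end minus start plus 1. Rank follows the −log10 p-value. Each position took 1 class, with coding exons before untranslated regions, introns, upstream and downstream windows of protein-coding genes, and then pseudogenes. The steps were tested on simulated data.

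Genes named are those of the 50 highest peaks, those with 2 or more peaks, members of the 12 lists with a peak, and the 10 highest peaks with no gene. Members and lists were chosen with earlier results of these data known. Alternatives were a −log10 p-value of at least 20, the list without copied peaks, peaks up to 1 kb apart counted as 1, genes assigned again from the annotation, rank by fold, other numbers of highest peaks and other motif windows.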

Additional observations from a re-analysis of the deposited data

How the results depend on the processing

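No paired analysis was possible because the authors merged the replicates into 1 list. The share of peaks on chromosome 2, 33.3%, was between 28.0% and 33.0% with a −log10 p-value of at least 20, without copied peaks and with peaks up to 1 kb apart counted as 1, and was 29.2% without *CLF* and the 18 peaks of related sequence, a choice made with the data in view. The rho of width and rank, −0.01, was 0.32 with rank by fold. The 21 genes with several peaks became 5 with a −log10 p-value of at least 20, 3 with peaks up to 1 kb apart counted as 1, 40 with genes assigned again from the annotation, which has more genes in reach, and 16 without copied peaks, the last chosen after seeing the data. The share of peaks with no gene, 21.5%, was 5.69% with genes assigned again, since pseudogenes and noncoding genes then count, and 6.99% without copied peaks. The share of the 50 highest peaks with a gene, 76.0%, was 86.0% with rank by fold. The share with a CArG-box, 7.32%, was 29.3% with 1 mismatch, and 14.0% in the 50 highest, a choice made after seeing the data. The other alternatives moved these values by less, and the 38 listed genes with a peak were 38 with genes assigned again.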

Other observations

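The windows of the peaks held another sequence that no list in the report covers. All 2080 hexamers, each counted along with its reverse complement, were counted in the 201-base windows of the 186 single-place peaks and of the genome, and the ratio of the shares was ranked among the 552 found in at least 20 peaks. The G-box CACGTG stood first, with 19.9% of the peaks and 2.21% of the genome windows. The next 3 were ACCGGC (17.7% and 2.32%), CCGGTA (20.4% and 2.70%) and ACCGGT (16.7% and 2.31%), and overlap each other in letters. At least 1 of these 3 was in 53 of 186 peaks (28.5%) and in 5.79% of genome windows. In the 79 upstream peaks it was in 39.2%, against 3.77% of upstream windows, and in the 32 peaks of 5′ untranslated regions in 46.9%. It was in 1 of the 21 peaks with a summit in a 3′ untranslated region. Of the 37 peaks with a G-box 18 held it, of the 16 with a CArG-box 0 did and of the 133 with neither 35 did. In the 4 groups by rank the shares were 25%, 40.4%, 23.4% and 23.3%. The hexamers were found by looking at these windows, so the shares are a description, and the protein that may bind them was not tested. The study describes a longer motif, the CE-box, that ends in GCCGGT, the reverse complement of ACCGGC. It reports the CE-box as enriched in SVP:GFP peaks called with FLC present, including those also called in *flc-3*. Peaks called only in *flc-3* were not enriched for it there. The CE-box as a whole was not searched here. Capitals mark these 3 hexamers in 3 windows that hold them several times.

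*DFL1*, chr5:22134591-22134791: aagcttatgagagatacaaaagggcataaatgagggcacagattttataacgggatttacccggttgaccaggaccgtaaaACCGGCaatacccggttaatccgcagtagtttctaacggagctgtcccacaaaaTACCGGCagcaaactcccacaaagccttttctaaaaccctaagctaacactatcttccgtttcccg
*WES1*, chr4:13652553-13652753: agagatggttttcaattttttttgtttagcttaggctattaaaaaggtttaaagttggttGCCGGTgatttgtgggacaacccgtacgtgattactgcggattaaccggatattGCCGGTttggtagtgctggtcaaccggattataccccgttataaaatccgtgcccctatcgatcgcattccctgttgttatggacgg
*TIC*, chr3:7912162-7912362: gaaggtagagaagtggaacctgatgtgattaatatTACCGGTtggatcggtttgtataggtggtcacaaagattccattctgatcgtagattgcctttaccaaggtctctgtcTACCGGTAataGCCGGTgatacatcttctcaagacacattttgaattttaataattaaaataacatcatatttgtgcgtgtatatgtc

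Families chosen after their values were seen had several members with a peak, where 1.02% of all protein-coding genes had one. Because of that choice, their shares are not independent evidence. Of the 67 annotated *WRKY* genes, for transcription factors of stress and defence, 4 (5.97%) had one. These were *WRKY28* (4.07-fold, −log10 p-value 21.2), *WRKY23* (3.95-fold, 20.3), *WRKY8* (2.72-fold, 13.5) and *WRKY48* (3.09-fold, 11.9). Of 13 annotated polyubiquitin genes, 2 (15.4%) had one. Of the 14 annotated genes for telomere-binding and TRF-like proteins, 3 (21.4%) had a peak within 200 bases upstream of the gene. These were *TRP1* (4.23-fold, 23.1), *TBP1* (3.77-fold, 19.4) and *TRFL9* (3.58-fold, 16.3), and the first pair held a G-box.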
